A study of Mus musculus with 38 samples.

Results

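The spleens of 38 BXD strains fell into 2 separate levels of Glrx, the gene of the cytosolic glutaredoxin, and those levels were compared here across all other probes. The arrays were chosen by the log2 intensity of the only Glrx probe, ILMN_2776922, ordered and divided at the largest gap between neighbouring arrays, which put 21 of 38 arrays in a high Glrx group and 17 in a low Glrx group. BXD strains are recombinant inbred mouse lines, bred from C57BL/6 and DBA/2 mice until each line is homozygous, so that a locus is present in 1 of 2 parental forms. Each strain gave 1 array of spleen RNA, pooled in equal amounts from 2 mice of the same sex aged 8 to 12 weeks, and no treatment, transgene or engineered allele is given in the labels for any strain. The high Glrx group held BXD6, BXD18, BXD19, BXD28, BXD29, BXD38, BXD40, BXD42, BXD43, BXD45, BXD48, BXD51, BXD61, BXD65, BXD69, BXD70, BXD73, BXD75, BXD83, BXD96 and BXD98. The low Glrx group held BXD11, BXD12, BXD14, BXD16, BXD21, BXD24, BXD27, BXD32, BXD33, BXD34, BXD36, BXD44, BXD50, BXD62, BXD66, BXD68 and BXD87. Strain genotypes and arrays of the parental strains were not used here, so neither level is assigned to a parent.

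Glutaredoxin is a small thiol oxidoreductase that takes electrons from glutathione to remove glutathione from protein cysteines, reversing the modification called glutathionylation. Glutathione is in turn kept reduced by glutathione reductase, and the thioredoxin system works in parallel with its own reductase. In a panel of inbred lines, a gene whose transcript follows the parental form of its own locus is said to be under local control, and neighbouring genes on the same chromosome are inherited together with it unless a recombination lies between them. The distance along chromosome 13 therefore orders the results that follow. Expression is given as log2 intensity after background correction and quantile normalization, and a difference is high Glrx minus low Glrx arrays on that log2 scale.

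The promoters of Glrx and of Rhobtb3, its nearest analysed neighbour that changed, are shown because these are the start regions of the adjoining genes on which the local comparison turns. Both come from RefSeq on build GRCm38.p6, the C57BL/6 reference, run 5′ to 3′ on the strand of the gene, and span 250 bases before to 50 bases after the annotated start. Capitals mark matches to the motifs searched on both strands, which were AP-1 (TGANTCA), the NRF2 core (TGACNNNGC), the TATA box (TATAAA), the CCAAT box (CCAAT) and the GC box (GGGCGG). The Glrx window, the first of 2 Glrx entries in the table, is chr13:75839635-75839934 on the plus strand, and the Rhobtb3 window is chr13:75943775-75944074 on the minus strand.
Glrx: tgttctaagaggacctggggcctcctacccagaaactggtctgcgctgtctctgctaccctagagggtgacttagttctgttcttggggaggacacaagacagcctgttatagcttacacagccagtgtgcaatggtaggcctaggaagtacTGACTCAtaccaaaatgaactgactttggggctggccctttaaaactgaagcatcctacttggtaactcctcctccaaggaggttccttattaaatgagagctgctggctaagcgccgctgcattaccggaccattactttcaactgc
Rhobtb3: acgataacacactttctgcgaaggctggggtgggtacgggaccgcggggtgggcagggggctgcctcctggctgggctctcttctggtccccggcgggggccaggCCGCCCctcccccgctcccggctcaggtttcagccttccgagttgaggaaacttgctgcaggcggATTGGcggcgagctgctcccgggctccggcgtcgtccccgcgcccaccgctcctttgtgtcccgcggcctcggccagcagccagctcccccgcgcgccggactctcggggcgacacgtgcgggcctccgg
The Glrx window held 1 AP-1 match, which begins 98 bases before the start, and none of the other 4 motifs. AP-1 letters occur in 7.81% of 32851 promoters of this length, the NRF2 core in 12.4% and the TATA box in 13.6%. The Rhobtb3 window held a CCAAT box on the opposite strand, 80 bases before the start, and a GC box, also on the opposite strand, 145 bases before it. CCAAT occurs in 37.4% and GGGCGG in 35.7% of the same promoters. Only the C57BL/6 reference is shown, and the DBA/2 sequence was not analysed here.

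Glrx log2 intensity was 11.46 at the lowest, 11.93 at the median and 12.45 at the highest in the 21 high Glrx arrays. In the 17 low Glrx arrays it was 7.76 at the lowest, 8.40 at the median and 8.93 at the highest. The means were 11.91 ± 0.201 in high Glrx arrays (SD, n = 21) and 8.36 ± 0.345 in low Glrx arrays (SD, n = 17), and the medians stood 11.6-fold apart. These values chose the groups and are given as a description without a test. The last array inside the high group was BXD38, at 11.46, and the first outside it was BXD16, at 8.93. The gap between them was 2.53, against 0.33 for the next largest gap between neighbouring arrays, so no array lay between the levels. Before normalization the intensity ran from 2135 to 7126 in high Glrx arrays (median 3893) and from 264 to 673 in low Glrx arrays (median 400), and the probe was detected on all 38 arrays. In the authors' deposited table of processed values the same probe had 11.22 to 12.29 in high Glrx arrays and 8.39 to 9.05 in low Glrx arrays. The same 21 arrays were high there, with the detection p-values as deposited and with no background correction. A probe reads a short stretch of transcript, and a strain variant under the probe cannot be told apart from a difference in RNA level, for Glrx and for every gene below.

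**Figure D1:**
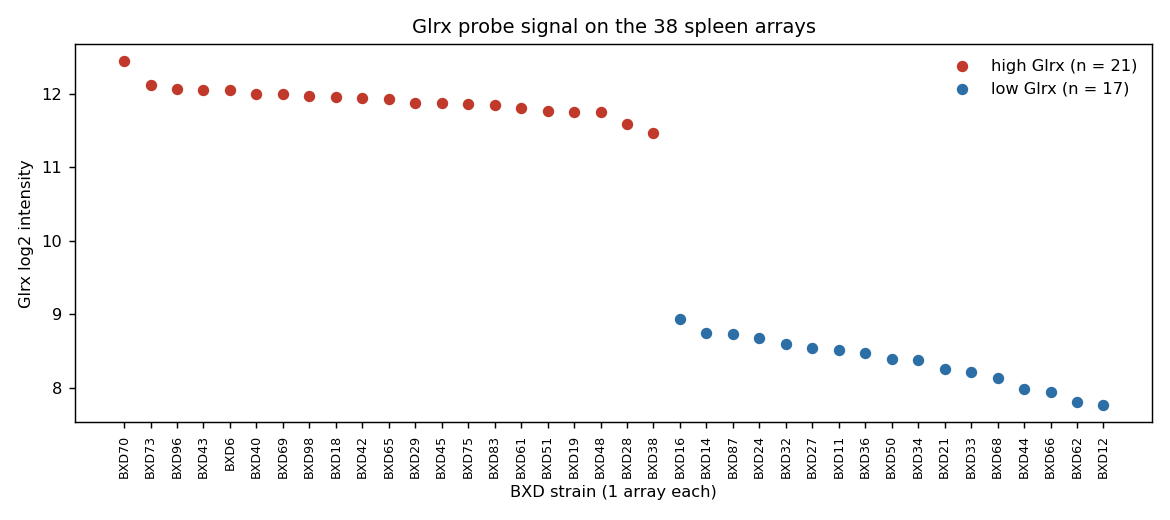
Glrx log2 intensity (vertical axis) of the 38 arrays, 1 point per strain, ordered from the highest to the lowest value with high Glrx arrays on the left and low Glrx arrays on the right. The 21 high arrays lie between 11.46 and 12.45 and the 17 low arrays between 7.76 and 8.93, with no array between.

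The groups were alike in array quality but not in all other respects. The high Glrx arrays had 13791 to 15732 probes detected and the low Glrx arrays 14063 to 15573. Median intensity ran from 86.4 to 116 in high and from 85.0 to 122 in low Glrx arrays. All 3 arrays labelled female (BXD18, BXD38 and BXD96) were in the high group. Strains numbered 43 and above made up 13 of the 21 high and 6 of the 17 low Glrx arrays. The level of H2-Ab1, an MHC class II gene of chromosome 17 that itself split into separate levels, was upper on 14 of 21 high and on 2 of 17 low Glrx arrays. The mean of the erythroid marker list ran from 8.12 to 11.18 (median 10.02) in high and from 8.64 to 11.76 (median 10.74) in low Glrx arrays. Spleens also differed in genes of pancreatic secretory cells, whose list mean had a median of 8.51 in high and 12.75 in low Glrx arrays, with a range of 5.43 to 15.42 and 5.43 to 15.24. The marker lists of the spleen's own cells were measured in most members, among them 17 of 20 B cell and 16 of 20 T cell genes. Fewer cells of a type and less RNA per cell cannot be told apart in whole spleen.

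The transcripts that differed between the groups were few, and those with a gene name lay on chromosome 13. By limma's moderated test with Benjamini-Hochberg adjustment over 17582 probes and a threshold of 0.05, 14 probes changed (0.0796%), 10 of them higher (0.0569%) and 4 lower (0.0228%) in high Glrx arrays. Named probes on chromosome 13 gave 7 of 430 (1.63%), 5 higher and 2 lower, and 7 of 5250 probes without a single gene name (0.133%) changed. The 7 named genes were Rhobtb3, Arsk, Mrps27, Nsun2, Fastkd3, Zfp738 and Zfp367. Their order along the chromosome, counted in analysed genes from Glrx, was 1, 3 and 48 after it for Rhobtb3, Arsk and Mrps27, and 22, 26, 28 and 43 before it for Nsun2, Fastkd3, Zfp738 and Zfp367. Of 391 chromosome 13 genes analysed, 279 lie before Glrx and 112 after it.

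Rhobtb3, whose product acts in transport between endosomes and the Golgi, adjoins Glrx with no protein-coding gene between them, and is read from the opposite strand. Its log2 intensity was 7.45 at the lowest, 8.11 at the median and 8.33 at the highest in high Glrx arrays. In low Glrx arrays the lowest was 8.07, the median 8.76 and the highest 9.32. The direction was opposite to that of Glrx, and of the 17 low Glrx arrays BXD68, at 8.07, was the lowest and the next was BXD66 at 8.40, above every high Glrx array. Rhobtb3 was 0.70 ± 0.09 (SE) lower in high Glrx arrays on the log2 scale, with a limma adjusted p of 9.8e-06. It did not fall into separate levels of its own, as its arrays formed a spread of 8.08 ± 0.197 in high Glrx arrays (SD, n = 21) and 8.77 ± 0.340 in low Glrx arrays (SD, n = 17). Arsk encodes arylsulfatase K, a lysosomal enzyme that removes sulfate from glycosaminoglycans, and has 4 protein-coding genes between it and Glrx. It had 5.91, 6.43 and 6.83 (lowest, median, highest) in high Glrx arrays and 5.50, 5.86 and 6.57 in low Glrx arrays. The groups overlapped, with BXD38 the lowest of the high and BXD36 the highest of the low Glrx arrays. Arsk was higher by 0.53 ± 0.08 (SE; limma adjusted p = 5.5e-04) and was detected on 21 of 21 high and 14 of 17 low Glrx arrays. Both genes kept their direction and their call in each alternative in which they were tested, 13 for Rhobtb3 and 12 for Arsk, but their differences were -0.30 and 0.04 with the detection p-values as deposited and -0.40 and 0.09 in a fit of the authors' deposited table of processed values.

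No other gene close to Glrx passed the test. The 20 analysed genes nearest to Glrx, 10 on each side, included 2 that changed and 18 that did not pass the test, whose smallest limma adjusted p was 0.371. Before Glrx these were Ell2, an elongation factor of RNA polymerase II, Cast, the calpain inhibitor calpastatin, Zfp825, Zfp72, Lrrc14b, Ccdc127, Ahrr, the repressor of the aryl hydrocarbon receptor, the exocyst subunit Exoc3, Tppp and Zdhhc11. After Glrx they were Spata9, the SKI complex gene Ttc37, Mctp1, Fam172a, Pou5f2, the nuclear receptor Nr2f1, Arrdc3 and the RNA polymerase III subunit Polr3g, beside Rhobtb3 and Arsk. The differences of the 18 ran from -0.37 (Zdhhc11) to 0.13 (Fam172a), and that of Zdhhc11 was 0.02 ± 0.08 (SE) with the erythroid list mean as a covariate. Ell2, the first analysed gene before Glrx, differed by 0.05 ± 0.13 (SE; adjusted p = 0.959) and Cast by 0.03 ± 0.05 (adjusted p = 0.934). A second Ell2 probe had the opposite sign, at -0.12 ± 0.11 (SE; limma adjusted p = 0.828). Spata9, which lies between Rhobtb3 and Arsk, differed by 0.03 ± 0.09 (adjusted p = 0.963). Spata9 was dim, detected on 12 of 21 high and 10 of 17 low Glrx arrays. Lrrc14b was detected on 13 high and 11 low Glrx arrays, Mctp1 on 4 and 3, and Polr3g on 3 and 1. Small differences of such dim genes lie near background and do not show that their transcripts were unchanged. Ahrr and Zdhhc11, also dim, had values of -0.26 ± 0.11 and -0.37 ± 0.16, and Fam172a and Arrdc3 had 0.13 ± 0.05 and -0.16 ± 0.08. All 4 had an unadjusted limma p under 0.05 and none passed the adjusted threshold. The median absolute difference was 0.13 over the 10 analysed genes nearest after Glrx, Rhobtb3 and Arsk included, and 0.05 over the 10 nearest before it. Over named genes on other chromosomes it was 0.07.

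**Figure D2:**
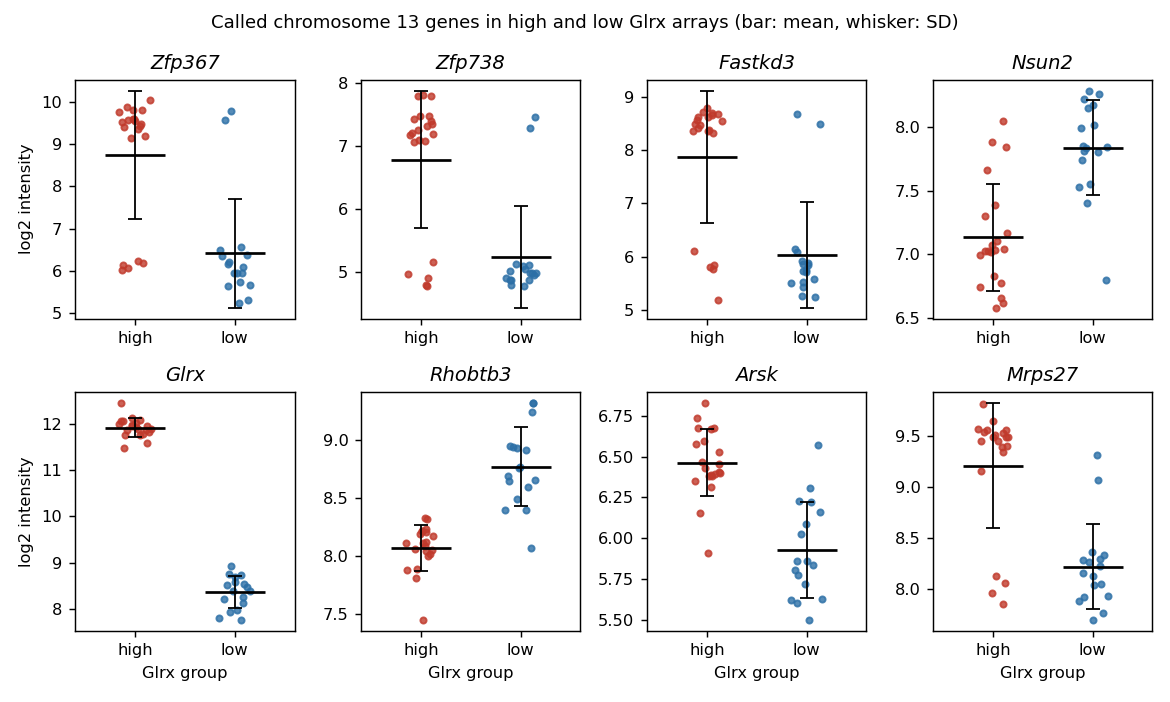
Log2 intensity (vertical axes, a scale per gene) of Glrx and of the 7 named genes that changed, 1 point per array, high Glrx arrays left and low Glrx arrays right, with a bar at the mean and whiskers of 1 SD (n = 21 and 17). Rhobtb3 and Arsk shift as a whole with some overlap, whereas Mrps27, Fastkd3, Zfp738 and Zfp367 each show separate levels with a few arrays at the level of the other group.

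The other named genes lay farther off, and 4 of them had levels of their own. Mrps27, a protein of the small subunit of the mitochondrial ribosome, has 100 protein-coding genes between it and Glrx. Its log2 intensity was 7.86, 9.49 and 9.82 (lowest, median, highest) in high Glrx arrays and 7.69, 8.16 and 9.31 in low Glrx arrays, higher by 0.99 ± 0.17 (SE; limma adjusted p = 0.0039). On the other side, Fastkd3, of a family of mitochondrial RNA-binding proteins, had 5.19, 8.48 and 8.80 in high and 5.25, 5.74 and 8.68 in low Glrx arrays, higher by 1.84 ± 0.36 (adjusted p = 0.0165). In both genes most arrays of a group lay together and a few lay at the level of the other group, so the ranges covered each other. Zfp367, a zinc finger transcription factor, had 6.03, 9.48 and 10.05 in high and 5.22, 6.08 and 9.79 in low Glrx arrays, higher by 2.34 ± 0.45 (adjusted p = 0.0143). A second Zfp367 probe, ILMN_2586802, disagreed, with a difference of -0.07 ± 0.11 (adjusted p = 0.928), so the change was that of 1 probe and not of every part of the transcript measured. Zfp738, of the large zinc finger gene clusters of this chromosome, whose members resemble each other, had 4.77, 7.20 and 7.81 in high and 4.78, 4.98 and 7.45 in low Glrx arrays, higher by 1.54 ± 0.31 (adjusted p = 0.023). It was detected on 16 of 21 high and on 2 of 17 low Glrx arrays, so most of its low values lie at background. Zfp738 thus passed the detection filter, which asked for 3 arrays or more, only through the group where it is higher. Its adjusted p is therefore a description. Nsun2, a methyltransferase that places 5-methylcytosine in RNA, went the other way, with 6.58, 7.04 and 8.05 in high and 6.80, 7.84 and 8.29 in low Glrx arrays, lower by 0.71 ± 0.13 (limma adjusted p = 0.0082). The 3 highest of the high Glrx arrays at Nsun2 were BXD45, BXD6 and BXD28, and the lowest of the low ones was BXD34. With the H2-Ab1 level as a covariate, all 5 of these genes kept their direction and lost the call (sizes 0.92 for Mrps27, 1.58 for Fastkd3, 2.13 for Zfp367, 1.31 for Zfp738 and -0.57 for Nsun2). In a fit of the authors' deposited table of processed values all 5 were called, with smaller differences of 0.64 for Mrps27, 0.58 for Fastkd3, 1.004 for Zfp367, 0.29 for Zfp738 and -0.26 for Nsun2.

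Several of these genes set the same arrays apart from the Glrx division. Each analysed probe was divided at its own largest gap. Probes with a gap of at least 0.5 and at least 8 arrays on each side were taken as bilevel. This gave 8 of 430 named probes on chromosome 13 and 248 of 11885 on other chromosomes, not a larger share on chromosome 13. Zfp367, Zfp738 and Fastkd3 each set the same 7 arrays apart from the Glrx division (BXD6, BXD28, BXD34, BXD45, BXD62, BXD69 and BXD73). Mrps27, on the other side of Glrx, set 6 apart (BXD6, BXD19, BXD28, BXD34, BXD43 and BXD44). Among high Glrx arrays, Fastkd3 ran from 8.33 to 8.80 in the 16 that went with Glrx and from 5.19 to 6.10 in the 5 that did not. Among low Glrx arrays, BXD34 and BXD62 had Fastkd3 at 8.50 to 8.68, against 5.25 to 6.13 in the other 15. For Mrps27, 17 high Glrx arrays had 9.16 to 9.82 and 4 had 7.86 to 8.12, while among low Glrx arrays BXD34 and BXD44 had 9.07 to 9.31 and the other 15 had 7.69 to 8.36. The sides were therefore clear in every array at both genes. BXD6, BXD28 and BXD34 stood apart from Glrx at both flanking genes, 10 strains at Fastkd3 or Mrps27, and 28 at neither. Nsun2, which lies nearer to Glrx than Fastkd3 and has no separate levels, was 7.88 in BXD6 and 7.84 in BXD28, both high Glrx, and 6.80 in BXD34, which is low Glrx, against medians of 7.04 in high and 7.84 in low Glrx arrays. Rhobtb3 was 8.12 in BXD6, 8.32 in BXD28 and 8.92 in BXD34, and Arsk was 6.43, 6.46 and 5.62 in the same strains. These were nearer to the median of their own Glrx group, but Rhobtb3 and Arsk were called because they follow Glrx, and their groups overlap. The values of BXD6 and BXD28 lie inside the low Glrx range for Rhobtb3 (8.07 to 9.32) and for Arsk (5.50 to 6.57). Farther out the number of arrays apart grew, to 12 for Gapt, a lymphocyte adaptor protein gene 81 analysed genes after Glrx, 15 for the poly(ADP-ribose) polymerase gene Parp8 and 14 for Paip1, which binds the poly(A)-binding protein and is 104 genes after Glrx. It was 14 for Atxn1, 135 genes before Glrx. Paip1 ran in the opposite direction, with the upper level on more low Glrx arrays. Named bilevel probes on other chromosomes numbered 248 and stood apart from Glrx on 9 to 19 arrays (median 17), where 19 of 38 is the most that can be counted because the better of the 2 directions is taken.

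**Figure D3:**
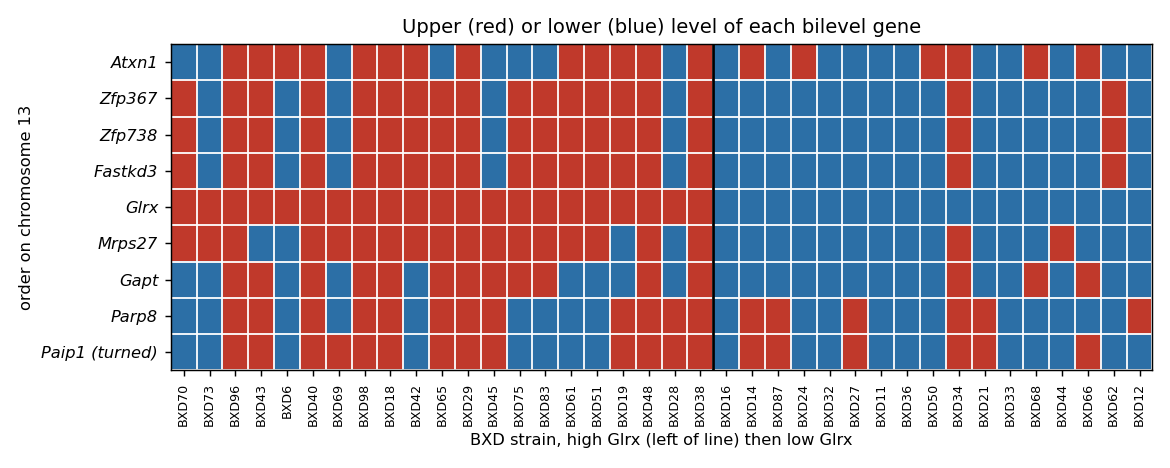
Level of Glrx and of each bilevel chromosome 13 gene (rows, in chromosome order) in each of the 38 strains (columns, high Glrx left of the line and low Glrx right of it), red for the upper and blue for the lower level, with the colours of Paip1 turned because it runs the other way. Zfp367, Zfp738 and Fastkd3 show the same pattern, and BXD6, BXD28 and BXD34 differ from Glrx at genes on both sides of it.

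Across the rest of chromosome 13 the share of genes with an unadjusted p under 0.05 was 40% of the 10 analysed genes nearest after Glrx and 20% of the 10 nearest before it. It was 36% of the 25 genes ranked 26 to 50 before Glrx, the stretch that holds Fastkd3, Zfp738 and Zfp367, and 16% of the 25 ranked 26 to 50 after it, with Mrps27. Between these, at ranks 11 to 25, it was 6.67% of 15 genes before Glrx, with Nsun2, and 20% of 15 genes after it, and at ranks 51 to 100 it was 14% of 50 genes before and 16% of 50 after. Beyond rank 100 it was 8.38% of 179 genes before and 16.7% of 12 genes after. Over all named chromosome 13 probes it was 13.5% of 430, against 10.2% of 11885 on other chromosomes and 9.47% of all 17582. The share was not particular to chromosome 13, with 17.6% of 601 probes on chromosome 17 and 13.1% of 708 on chromosome 9. Genes inherited in one block are not independent of each other.

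**Figure D4:**
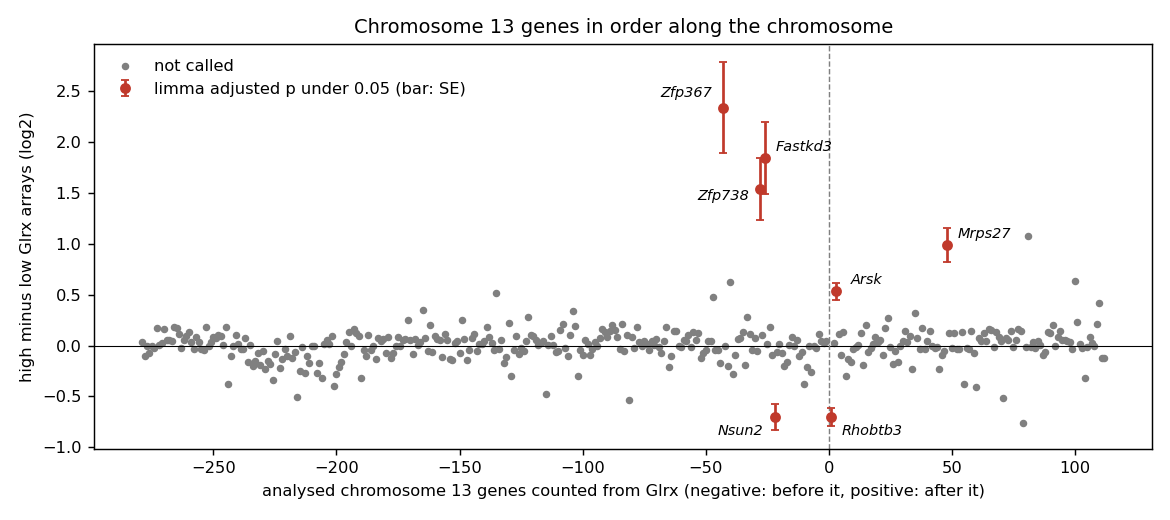
Difference in log2 intensity, high minus low Glrx arrays (vertical axis), of the 391 chromosome 13 genes analysed against their rank from Glrx, negative ranks before and positive ranks after it. The 7 genes that changed are red with bars of 1 SE and the others grey, with Rhobtb3 and Arsk beside Glrx and the others between rank -43 and 48.

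Of the 7 unnamed probes that changed, ILMN_1223980 followed Glrx array for array. Its log2 intensity was 6.99, 7.58 and 8.56 (lowest, median, highest) in high Glrx arrays and 4.84, 5.29 and 5.77 in low Glrx arrays. It was the only 1 of 17582 probes whose groups did not overlap (0.00569%), and divided at its own gap of 1.23 it set 0 arrays apart. It was higher by 2.46 ± 0.12 (SE; limma adjusted p = 7.5e-19) and was detected on 21 of 21 high and 1 of 17 low Glrx arrays. ILMN_1223980 thus passed the detection filter only through the group where it is higher, and most of its low values lie at background. Its adjusted p and its lack of overlap are therefore a description. ILMN_2769564 rose by 1.16 ± 0.22 (adjusted p = 0.0143), and ILMN_2757958 and ILMN_1246155 fell by 0.91 ± 0.19 (adjusted p = 0.027) and 0.45 ± 0.10 (adjusted p = 0.038). ILMN_1246155 was detected on 0 of 21 high and 3 of 17 low Glrx arrays, with means of 4.73 and 5.18. It thus passed the detection filter only through the group where it is higher, and most of its values lie at background. The other 3 unnamed probes were higher by 0.99 to 1.25. Of these, ILMN_1245637 was detected on 15 of 21 high and 2 of 17 low Glrx arrays. It too passed the filter only through the group where it is higher. Divided at their own gaps, ILMN_1245637 and ILMN_3161206 set apart the same 7 arrays as Fastkd3, Zfp738 and Zfp367, and ILMN_2483650 set 12 apart. ILMN_1223980 kept its call in 12 of 12 alternatives, with a difference of 0.27 with detection p-values as deposited and 0.56 in the authors' deposited values. ILMN_2769564 kept its call in 9 of 13, ILMN_2757958 in 4 of 13, ILMN_1246155 in 3 of 12 and the other 3 in 1 to 3 of 12. The sequences and positions of these probes were not used here.

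Outside chromosome 13 no named gene passed the test, with 0 of 11885 probes called by limma and 1211 at an unadjusted p under 0.05. The smallest adjusted p was 0.0596, for Ddr1, a collagen receptor kinase gene on chromosome 17. Chromosome 17 also held the largest differences, in the MHC region. The class II gene H2-Ea had a median of 6.18 in high and 15.85 in low Glrx arrays, a difference of -5.21 ± 1.36 (SE; adjusted p = 0.153), with a range from 4.71 to 15.94 in high and 5.25 to 15.94 in low arrays. H2-Ab1 had a median of 15.37 in high and 13.57 in low Glrx arrays, a difference of 1.05 ± 0.26 (adjusted p = 0.131). The immunoproteasome subunit gene Psmb9 differed by 2.32 ± 0.57 (adjusted p = 0.111), the class II gene H2-Aa by 2.87 ± 0.71 (adjusted p = 0.122), H2-Eb2 by 0.92 ± 0.21 (adjusted p = 0.0664), the class I gene H2-T22 by 0.97 ± 0.22 (adjusted p = 0.0864) and the receptor gene Notch4 by -0.50 ± 0.11 (adjusted p = 0.0614). On chromosome 17, 106 of 601 probes (17.6%) had an unadjusted p under 0.05. H2-Ab1, H2-Aa, Psmb9 and 9 other bilevel chromosome 17 probes each stood apart from Glrx on 9 arrays, the fewest of any named bilevel probe off chromosome 13. For H2-Ab1 these were the 7 high Glrx arrays at its lower and the 2 low Glrx arrays at its upper level. The Glrx division and the H2 levels were unevenly matched in these 38 strains, so differences that follow both cannot be told apart. Among the 35 arrays labelled male, 9 named probes off chromosome 13 passed the test, 8 of them on chromosome 17 (H2-Eb2, H2-T22, Ddr1, Vars2, H2-Ob, H2-Ab1, Psmb9 and Notch4) and 1 on chromosome 12, the interferon-induced Rsad2 (-1.08 ± 0.23, SE). The Vars2 call was that of probe ILMN_1236713 (1.62 ± 0.33, SE). The brightest Vars2 probe went the other way in all 38 arrays, at -0.20 ± 0.07 (SE; limma adjusted p = 0.339). In all 38 arrays Rsad2 differed by -0.93 ± 0.23 (adjusted p = 0.128).

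No partner of glutaredoxin passed the test. Of 40 genes on a list of the glutathione and thioredoxin systems, 32 were measured beside Glrx, 11 of them higher and 21 lower in high Glrx arrays, with a median difference of -0.04, and limma called 0 (smallest adjusted p 0.338, 8 at an unadjusted p under 0.05). Over all 11166 named genes the median difference was 0.01, with 6049 higher and 5117 lower, 7 called and 10.6% at an unadjusted p under 0.05, against 25% of the 32 listed genes. The other glutaredoxins had differences of -0.03 (Glrx2), -0.07 (Glrx3) and -0.38 ± 0.13 (SE) for Glrx5, which serves iron-sulfur cluster assembly in mitochondria (adjusted p = 0.338, and -0.44 for its second probe). Mgst3 and Mgst2, microsomal glutathione transferases, had -0.83 ± 0.30 (adjusted p = 0.339) and 0.32 ± 0.12 (adjusted p = 0.355). The mitochondrial thioredoxin reductase Txnrd2 had -0.44 ± 0.17 (adjusted p = 0.356) and the peroxiredoxin Prdx2, abundant in red cells, had -0.40 ± 0.16 (adjusted p = 0.371). With the erythroid list mean as a covariate these differences were -0.03 for Glrx5, -0.04 for Mgst3, 0.20 for Mgst2, -5.1e-04 for Txnrd2 and 0.03 for Prdx2. Of 16 Nrf2 target genes, 12 were measured, 6 higher and 6 lower, with a median of -0.01, and limma called 0 (1 at an unadjusted p under 0.05).

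Among the cell type and process lists none held a called gene by limma. All 17 measured erythroid genes were lower in high Glrx arrays, with a median difference of -0.72, and all 17 had an unadjusted p under 0.05. Their smallest adjusted p was 0.235, for Alas2, the first enzyme of haem synthesis in red cell precursors, at -0.53 ± 0.15 (SE). All 18 measured cell cycle genes were lower, with a median of -0.38 (12 at an unadjusted p under 0.05, smallest adjusted p 0.339 for Ccna2). All 19 pancreas genes were lower, with a median of -1.20 and none at an unadjusted p under 0.05 (smallest adjusted p 0.834). Members of 1 list move together within a spleen, so such counts of signs rest on few independent values. B cell genes had a median of 0.13 (16 of 17 higher), T cell genes of 0.10 (14 of 16 higher) and neutrophil genes of 0.21 (12 of 13 higher). An unadjusted limma p under 0.05 was reached by 5 of 17 B cell genes (29.4%), with a smallest adjusted p of 0.339. It was reached by 0 of the T cell and 0 of the neutrophil genes, against 10.6% of all named genes. The class I loading list, which holds Psmb9, had a median of 0.08 (11 of 12 higher). The medians were 0.04 for macrophage, 0.04 for dendritic cell, -0.07 for NK and cytotoxic cell, -0.07 for megakaryocyte and platelet, 0.00 for plasma cell, 0.17 for adipose tissue and 0.00 for interferon response genes. With the erythroid list mean as a covariate 4 probes remained called, 3 of them on chromosome 13 (Rhobtb3, Arsk and Mrps27). With the pancreas list mean as a covariate 12 probes were called, 7 of them on chromosome 13.

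Whether the Glrx division had the same size in the older and newer BXD strains was tested as an interaction with strain number, up to 42 against 43 and above. No probe passed the limma test, with 0 of 17582 called and 1350 at an unadjusted p under 0.05. The smallest adjusted p was 0.639, a value that probes share after the adjustment. Rhobtb3 had it at an unadjusted limma p of 0.0192, with other probes at smaller unadjusted p, so Rhobtb3 was not the strongest. Its difference was -0.83 in the older and -0.43 in the newer strains. Arsk differed by 0.51 in the older and 0.52 in the newer strains, and Fastkd3 by 1.83 in each.

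Flow cytometry of 34 of these strains gave lymphocyte measures independent of the arrays, for 18 high and 16 low Glrx strains. LN MHC Med, which expresses how much MHC class II B cells carried as a natural log, was 3.54 ± 0.281 in high Glrx strains (SD, n = 18) and 3.78 ± 0.265 in low Glrx strains (SD, n = 16). It ran from 3.02 to 3.97 (median 3.61) in high and from 3.12 to 4.15 (median 3.80) in low Glrx strains, so the groups overlapped over most of their range. The difference was -0.24 (95% interval -0.43 to -0.05), with a two-sided permutation p of 0.0177 and an adjusted p of 0.106 over 6 traits, so it did not pass the threshold. Among strains at the lower H2-Ab1 level LN MHC Med averaged 3.83 in 6 high and 3.82 in 14 low Glrx strains, and at the upper level 3.40 in 12 high and 3.44 in 2 low Glrx strains. Within H2-Ab1 levels the difference was -0.01 (permutation p = 0.902), while the permutation p under the 3 other alternatives lay between 0.0234 and 0.0444. CD3+ T cells were 30.9% ± 10.4 of lymphocytes in high and 35.7% ± 10.2 in low Glrx strains, and CD79+ B cells 61.5% ± 10.98 in high and 56.5% ± 9.86 in low Glrx strains (SD, n = 18 and 16). CD8+ cells were 11.8% ± 4.99 in high and 13.7% ± 5.02 in low Glrx strains. The log ratios LN T:B and LN CD4:CD8 were -0.75 and 0.45 in high and -0.51 and 0.51 in low Glrx strains. For these 5 traits the adjusted permutation p lay between 0.297 and 0.546, and all 5 intervals of the difference included 0. Within H2-Ab1 levels the direction turned for 4 of them, with differences of 3.05 for CD3%, -3.02 for CD79%, 1.54 for CD8% and 0.18 for LN T:B (adjusted permutation p = 0.492 each).

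**Figure D5:**
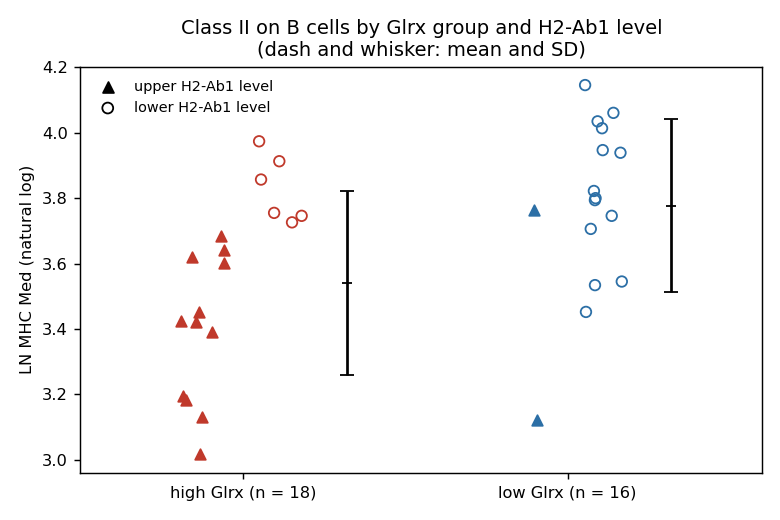
LN MHC Med (vertical axis, natural log) of the 18 high Glrx strains on the left and the 16 low Glrx strains on the right, 1 point per strain, with triangles for the upper and circles for the lower H2-Ab1 level and the mean with 1 SD beside each group. Within the lower H2-Ab1 level the means were 3.83 in high and 3.82 in low Glrx strains, and 12 of the 14 strains at the upper level were high Glrx.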

How the data were processed

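Illumina Mouse-6 v1.1 single-colour arrays measured spleen RNA of 38 BXD strains, 1 array each. The authors deposited probe intensity values that were not normalized, with a detection p-value per probe, per the file headers, and a table of processed, log2-like values (the submitters' processing notes name lumi). Percent traits and natural log traits were deposited by the authors in a phenotype table. The CD4 percent was not used because 1 entry is impossible.

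Deposited detection p-values were at 0.01 or more for 1144 probes with intensity values over 500, so each was replaced by the running median of 201 probes of similar intensity on that array. Intensities were corrected and normalized with neqc of limma 3.58.1 (offset 16, R 4.3.3; tables were read with version 1.17.8 of data.table). Of 34492 probes, 17583 were kept that had a smoothed value under 0.01 on 3 arrays or more, 12333 with 1 gene symbol, 6 with several and 5244 without one. Symbols came from GEO's platform annotation and chromosome order from a gene table of GRCm38.p6. The build behind the probes is not given in the sources used here. Both groups were compared with lmFit and eBayes, leaving Glrx out, and traits with scipy 1.17.1 permutation tests (100000 resamples). On simulated data for this comparison, 14, 38, 49 and 50 of 50 probes changed by 0.3, 0.5, 1 and 2 were recovered, with 9 false calls.

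Named genes are those called on chromosome 13, the 10 analysed genes nearest Glrx on each side, genes called elsewhere, called list members and the 5 glutathione and thioredoxin genes with the smallest p. Genes with several probes are given by the brightest, and chromosome 17 genes and bilevel genes outside the rule were chosen after their values were seen. The members and gene lists were chosen with earlier results of these data known. With 1 pool per strain, p-values measure the spread between strains, technical error included, and the number of arrays limits precision. 13 alternatives were run, of which 1 was added after seeing the data (arrays with a pancreas list mean under 9). Labels and files give no array batch, and 1 phenotype column was not used.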

Additional observations from a re-analysis of the deposited data

How the results depend on the processing

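The same 21 arrays were high in Glrx under each of the 4 scalings, and no called gene changed direction under any of 13 alternatives. The 14 called probes became 8 with detection p-values as deposited, 8 with no filter, 8 with strain series as a covariate, 8 without the 2 arrays beside the Glrx gap (BXD38 and BXD16), 5 among probes detected on every array, 4 with the erythroid mean as a covariate, 4 on the 18 arrays with a pancreas mean under 9 (chosen after seeing the data) and 3 with the H2-Ab1 level as a covariate. Male arrays gave 19, sex as a covariate 15 and no background correction 14. The pancreas covariate and the authors' deposited values gave 12 each. Only 9 of the 19 and 10 of the 15 were among the 14 of the main setting. Deposited detection p-values, strain series and leaving out the 2 arrays beside the gap each kept 7 of the 14 among their 8. With the authors' deposited values 11 of the 12 were shared, and in the other settings all were. The 7 named calls on chromosome 13 became 3 among probes detected on every array, 3 with the erythroid covariate, 3 on the 18 arrays and 2 with the H2-Ab1 level, namely Rhobtb3 and Arsk. Calls off chromosome 13, none in the main setting, were 1 with detection p-values as deposited, 1 with the authors' deposited values (in both 2610035D17Rik on chromosome 11), 9 on male arrays, 5 with sex as a covariate, 1 with strain series (Fads1, chromosome 19) and 1 without the 2 arrays beside the gap (H2-Eb2). The count of probes with no overlap was 0 among probes detected on every array, which leaves that probe out. Of 12 alternatives in which Zfp738 was tested it kept its call in 3, and Fastkd3 and Zfp367 kept theirs in 8. With detection p-values as deposited the sizes were 0.75 for Zfp367, 0.57 for Mrps27, 0.32 for Fastkd3, 0.13 for Zfp738 and -0.14 for Nsun2. With no background correction they were 0.75 for Zfp738 and 0.25 for Arsk, and the authors' deposited values gave smaller differences for each of the 7 named genes. The causes of these changes in count and size were not tested. Within H2-Ab1 levels the trait differences were 3.05 for CD3%, -3.02 for CD79%, 1.54 for CD8% and 0.18 for LN T:B, each at an adjusted permutation p of 0.492. No paired analysis was possible because each strain gave 1 array and so fell in only 1 Glrx group.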
